A study of Mus musculus with 3 samples.

Results

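Transcripts of 10 subunits of the BAF chromatin remodelling complex were measured in sorted cells of the embryonic mouse dorsal root ganglion. The members were taken by gene symbol from the 41388 Ensembl genes counted in each library, and all 10 were found. Actl6a, Phf10 and Ss18 are the 3 subunits known from neural progenitors, and Actl6b, Dpf1, Dpf3 and Ss18l1 are the 4 known from postmitotic neurons. Dpf2 and the ATPases Smarca4 and Smarca2 belong to neither class. The class names come from the literature, since no library held separated progenitors or separated neurons.

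The 3 libraries, called B, C and D in the labels, formed a single group without a second condition. All came from C57BL/6 embryos at 12.5 days post coitum, of both sexes, in which EGFP reported on Ret, the signalling receptor of the GDNF family. The sample labels give the genotype as Tg(Ret-EGFP)SJ/, a transgene, while the series text speaks of heterozygotes with EGFP in the Ret locus of C57BL/6J mice, and the conflict was not resolved. In a knock-in heterozygote 1 Ret allele would carry the reporter, and no library without the reporter was analysed here. Ganglia from segments T11 to S1 were dissociated and the cells were sorted by flow cytometry before RNA extraction. For library B, 340 ganglia of 17 embryos (10 male, 7 female) were pooled. For library C, the pool was 300 ganglia of 15 embryos, and for library D it was 60 ganglia of 3 embryos. Embryos of a pool came from different mothers. The libraries are separate pools of embryos, so their spread combines differences between pools with those of sorting and library preparation. Because each library is bulk RNA, fewer cells of a type and less RNA per cell cannot be told apart.

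BAF complexes, the mammalian relatives of yeast SWI/SNF, use the energy of ATP to move or evict nucleosomes and so open or close stretches of chromatin. Several positions in the complex are filled by 1 of a small family of paralogs. When neural progenitors leave the cell cycle, the actin-like subunit ACTL6A (BAF53a) is replaced by ACTL6B (BAF53b), PHF10 (BAF45a) by DPF1 (BAF45b) or DPF3 (BAF45c), and SS18 by SS18L1 (CREST). The neuronal form is known for its part in dendrite growth and in activity-dependent gene expression. In the known circuit for the actin-like position, the repressor REST holds back miR-9-3p (also written miR-9*) and miR-124 in progenitors, and both miRNAs act on the 3' UTR of Actl6a once REST declines.

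Libraries B, C and D held 18072199, 11666241 and 20966139 counts. A gene with no counts could have reached 0.166, 0.257 and 0.143 CPM (counts scaled to the library total) in these libraries, the level of 3 counts, which covers counting error only. Markers of neurons were detected for 8 of 8 genes, led by Tubb3, a neuronal tubulin, at 12294 ± 4861 TPM (SD, n = 3) and Stmn2, a neuronal microtubule regulator, at 8106 ± 1697. TPM is the count per gene length, scaled to the same total in every library, and detection meant at least 1 TPM in each of the 3 libraries. Markers of glia and Schwann cell precursors (8 of 8, led by Fabp7 at 1864 ± 712 TPM) and of dividing cells (8 of 8, led by Cdk1 at 103 ± 49.1 and Pcna at 67.1 ± 23.3) were detected as well. Neuronal progenitor markers were detected for 4 of 5 genes, led by Hes6 (96.3 ± 127 TPM) and Neurod1 (91.0 ± 59.0), and sympathetic markers for 3 of 5, led by Dbh (37.2 ± 40.6) and Th (35.9 ± 23.5). Mesenchyme markers were detected for 2 of 5 genes (Col1a2 24.2 ± 25.0 TPM, Col1a1 2.44 ± 0.40) and macrophage markers for 3 of 4 (C1qb 23.0 ± 5.68, Aif1 4.17 ± 1.27). Endothelial markers were detected for 0 of 4 genes (Pecam1 1.56 ± 1.03 TPM, Cdh5 0.75 ± 0.36) and spinal cord markers for 0 of 5 (Mnx1 0.16 ± 0.15, Pax6 0.074 ± 0.080), with no count for Lbx1 and Olig2 in any library. Library D stood apart from the others in the relation of its counts to gene length: across 15727 genes, gene length and the log2 ratio of D over B and C had a Spearman's rho of 0.40. This is a description over genes, which are not independent replicates. TPM divides by gene length within a library and does not remove such a trend, so members were tested between libraries by the fit described with library D. TPM by library is given as a description, and CPM is given beside it where the order of libraries matters.

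All 10 members were detected in every library, against 28.7% of all genes. Mean levels spanned from 127 ± 51.9 TPM for Actl6a to 2.45 ± 1.12 TPM for Dpf3. The order by mean TPM was Actl6a, Actl6b, Smarca4, Dpf2, Ss18, Dpf1, Smarca2, Ss18l1, Phf10 and Dpf3. Only the last steps of that order both exceeded their SD between libraries and held in 3 of 3 libraries. Ss18l1 lay above Phf10 by 0.49 ± 0.28 on the log2 TPM scale (SD, n = 3) and Phf10 above Dpf3 by 1.32 ± 0.65. None of the other 7 neighbours in the order met both conditions. Smarca2 lay above Ss18l1 by a mean of 0.54 ± 0.51, with a ratio of -0.02 in D. The step from Ss18l1 to Phf10 rests on the deposited gene lengths. That of Phf10 is 4914 bases against 1663 for its longest coding transcript, while Ss18l1 has 4343 by both. With the shorter length, Phf10 would lie above Ss18l1 in each library, so this step depends on the length used. By CPM, the coefficient of variation between libraries was smallest for Smarca2 (17.8%), followed by Actl6a (20.3%) and Smarca4 (27.9%), and largest for Ss18 (94.4%). Neither class was uniformly the higher one by mean TPM with the deposited lengths. Actl6a and Actl6b were both among the 3 most abundant members, while Phf10 and Dpf3 were the 2 least abundant by these lengths.

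**Figure D1:**
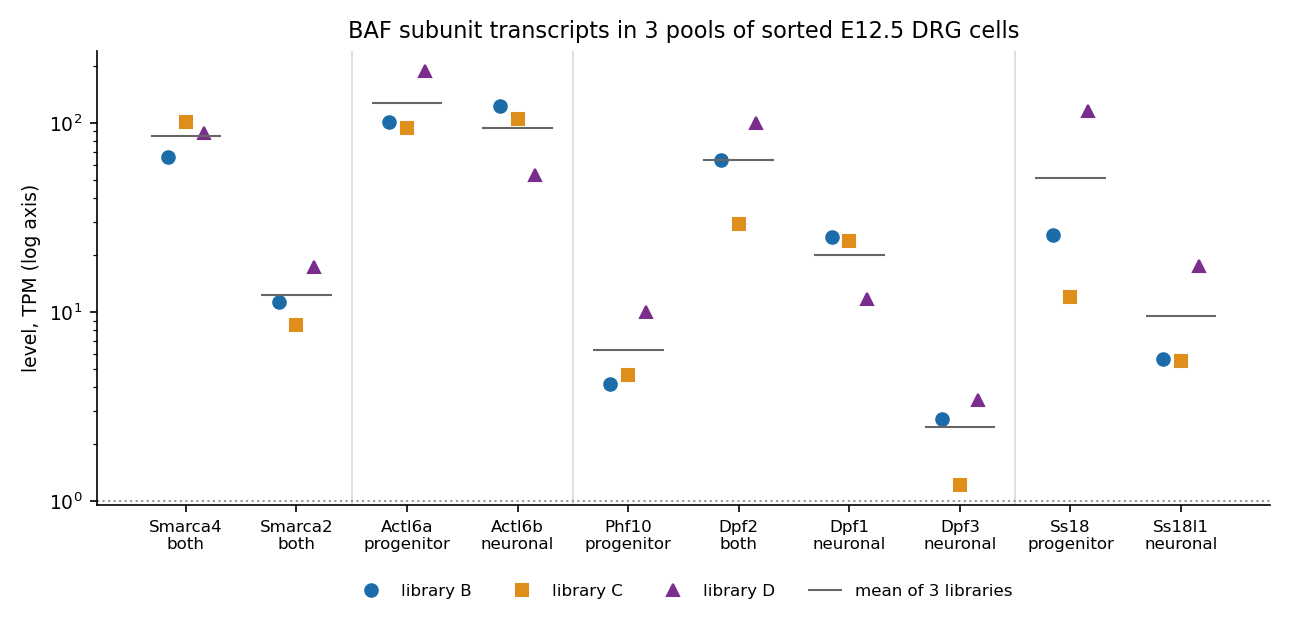
Level of each member in TPM (log axis) in libraries B (circles), C (squares) and D (triangles), grouped by position in the complex, with the mean of the 3 libraries as a bar and the detection limit of 1 TPM as a dotted line. Members in neither class are marked "both". All points lie above 1 TPM, and Ss18 has the widest spread, from 12.0 TPM in C to 115 TPM in D.

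At the actin-like position, transcripts of the progenitor and of the neuronal paralog were both abundant. Actl6a (ENSMUSG00000027671, GRCm38 chromosome 3, 32708546 to 32726968, plus strand, 14 exon blocks) had levels of 101, 93.9 and 187 TPM in libraries B, C and D. Actl6b (ENSMUSG00000029712, chromosome 5, 137553517 to 137569582, plus strand, 14 exon blocks) had levels of 122, 105 and 52.8 TPM in libraries B, C and D. By these values Actl6b lay slightly above Actl6a in B and C, and well below it in D. In B and C, 91.0% and 89.3% of the genes detected in the library lay below Actl6b, and in D 79.7% did. On the log2 scale, Actl6b over Actl6a came to 0.28, 0.16 and -1.82 in B, C and D, a mean of -0.46 ± 1.18 (SD, n = 3) whose spread exceeded it (exact two-sided sign-flip permutation test, p = 1.00). Without D the mean ratio was 0.22, so its sign rests on that library. The near-even ratios of B and C also depend on the gene length used: with the longest transcript as length they were 0.11 and -0.01, against -1.99 in D, with a mean of -0.63. With no length correction the mean was -0.97, and the ratio was negative in 3 of 3 libraries (-0.23, -0.35 and -2.33). Actl6b made up 54.8%, 52.8% and 22.0% of the summed TPM of the pair in B, C and D (43.2% ± 18.4), and the sum itself was 223, 199 and 240 TPM (220 ± 20.5). The counts behind these values were 2507, 1556 and 3981 for Actl6a and 2139, 1224 and 791 for Actl6b. Of the exon bases of Actl6a, 447 (16.2%) are shared with Mrpl47 on the opposite strand. The cDNA kit did not mark strand, so reads of these genes cannot be told apart there.

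The sequences of this position that bear on the known circuit are the miRNA, its matches among the members and the start of Actl6b. The mature miR-9-3p, identical in the RefSeq (GRCm38.p6) hairpins Mir9-1, Mir9-2 and Mir9-3, is shown with its seed, bases 2 to 8, in capitals. The stretches of Actl6a (GRCm38 chr3:32726624-32726649, plus strand) and of Smarca2 (chr19:26777486-26777511, plus strand) lie in 3' UTRs. There, capitals mark the letters AGCTTTA that pair with the whole seed, and they begin at base 38 after the stop codon in Actl6a and at base 132 in Smarca2.
miR-9-3p: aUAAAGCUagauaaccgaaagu
Actl6a 3' UTR: tcacctcaacgtctgtAGCTTTAgta
Smarca2 3' UTR: attgtcatctagaactAGCTTTAggg
The search read the sense strand of the longest protein-coding transcript of each gene, and Actl6a held 1 match in a 3' UTR of 371 bases. Of 2171 genes with 3' UTRs of like length, 2.53% held these letters, and of all 20939 genes 11.2% did. Smarca2 held 1 match in 951 bases, where 7.32% of UTRs of like length had one. The other 8 members, with Actl6b and its UTR of 196 bases among them, held none. A match is a description of the letters only. Mature miRNAs were not measured by this assay.

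Members were also searched for the letters of both ends of the REST binding element, CAGCACC and GGACAGC, in the 300 bases from 250 before to 50 after the RefSeq start (GRCm38.p6), on both strands. A promoter entry was found for 9 of the 10 members, all but Ss18. CAGCACC was present in 7.14% of all 32851 promoters and GGACAGC in 6.56%, and both in this order on 1 strand with at most 20 bases between them in 0.07% (23 promoters). Of these 9 members, Actl6b was the only one with either stretch. It held both, with a gap of 9 bases, on the strand opposite to the gene. The match spans chr5:137553567-137553589, bases 22 to 44 counted from the start as base 1. The promoter of Actl6b (chr5:137553296-137553595, plus strand) is shown because REST itself was among the genes measured, with the matched stretches, read here as reverse complements, in capitals.
Actl6b promoter: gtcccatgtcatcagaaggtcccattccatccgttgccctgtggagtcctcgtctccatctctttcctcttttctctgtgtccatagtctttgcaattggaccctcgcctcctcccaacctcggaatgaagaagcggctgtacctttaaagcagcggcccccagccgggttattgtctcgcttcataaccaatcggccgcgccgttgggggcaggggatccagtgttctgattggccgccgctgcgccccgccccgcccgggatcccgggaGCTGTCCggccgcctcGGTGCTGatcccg
The window held 23 CpG dinucleotides, and that of Actl6a 21, against a median of 7 over all promoters. No binding data were part of the series, and the match does not show that REST was bound there.

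At the PHD finger position, whose proteins read histone tails, the 4 BAF45 paralogs were compared. Dpf2 was the most abundant paralog and Phf10 and Dpf3 were rare. Dpf2 (BAF45d, the widely expressed member; chromosome 19, 5896516 to 5913010, minus strand) had levels of 63.3, 29.1 and 99.3 TPM in libraries B, C and D. Dpf1, a neuronal member (chromosome 7, 29303951 to 29317588, plus strand), was at 24.8, 23.8 and 11.7 TPM in the same order. By TPM and by CPM, Dpf2 was lowest in C and highest in D, and Dpf1 was lowest in D. Phf10, the progenitor member (chromosome 17, 14945009 to 14961273, minus strand), was at 4.15, 4.62 and 10.0 TPM. Dpf3, the other neuronal member, which also acts in heart and skeletal muscle (chromosome 12, 83213745 to 83487716, minus strand), was at 2.73, 1.22 and 3.41 TPM, from 104, 31 and 111 counts. Dpf3 was close to the detection limit in C, where 4.34% of detected genes lay below it.

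Shares of the summed BAF45 transcripts were 65.3% ± 15.2 for Dpf2, 25.3% ± 15.6 for Dpf1, 6.76% ± 2.07 for Phf10 and 2.57% ± 0.42 for Dpf3 (SD, n = 3). The Dpf1 share in B, C and D came to 26.1%, 40.5% and 9.37%, the widest range of the 4. Such shares are of transcripts and do not tell which BAF45 protein a complex holds. Of the neuronal members, Dpf1 exceeded the progenitor member Phf10, by log2 TPM ratios of 2.55, 2.34 and 0.22 in the 3 libraries (1.70 ± 1.29). Dpf3 lay below Phf10 in each library, by -0.59, -1.83 and -1.53 (-1.32 ± 0.65). By TPM with the deposited lengths, the neuronal members thus stood on opposite sides of Phf10 in 3 of 3 libraries. In D this depends on length: Dpf1 over Phf10 was -0.26 with no length correction and -0.73 with the longest transcript as length. Both neuronal members then lay below Phf10 in D. Dpf1 exceeded Dpf3 by 3.02 ± 1.22. Dpf2 exceeded Phf10 by 3.28 ± 0.63 in log2 TPM. Gene length bears on the Phf10 level: the deposited length is 4914 bases and its longest coding transcript 1663. With the longest coding transcript of each gene as length, the Phf10 share was 10.5% and Dpf3 over Phf10 was -2.44. Phf10 also shares 470 exon bases (9.56%) with 1600012H06Rik on the opposite strand.

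At the SS18 position, the progenitor paralog Ss18 was the more abundant in each library. Ss18, whose protein is part of the fusion that drives synovial sarcoma (chromosome 18, 14624198 to 14682914, minus strand), had levels of 25.6, 12.0 and 115 TPM in libraries B, C and D. Ss18l1, which encodes the calcium-responsive transactivator CREST (chromosome 2, 180042509 to 180070201, plus strand), was at 5.62, 5.49 and 17.5 TPM. Both paralogs were highest in D by TPM and by CPM, and the ranges of the paralogs overlapped across libraries while their order within each library did not change. The log2 ratio of Ss18l1 over Ss18 was -2.17, -1.11 and -2.72 in B, C and D (-2.0 ± 0.82, SD, n = 3). Ss18l1 made up 18.0%, 31.4% and 13.2% of the summed TPM of the pair (20.9% ± 9.46). The mean level of both rests on D: without it, Ss18 was at 18.8 TPM rather than 50.9 and Ss18l1 at 5.55 rather than 9.52.

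At the ATPase position, Smarca4 (BRG1, the motor needed in most dividing cells of the embryo; chromosome 9, 21616169 to 21704230, plus strand, 35 exon blocks) had levels of 66.3, 101 and 88.8 TPM in libraries B, C and D. Smarca2 (BRM, its alternative motor; chromosome 19, 26605115 to 26778321, plus strand, 44 exon blocks) was at 11.3, 8.58 and 17.2 TPM. The ranges of the 2 ATPases did not overlap. Smarca4 exceeded Smarca2 by a log2 ratio of 2.54, 3.54 and 2.36, a mean of 2.81 ± 0.63 (SD, n = 3), and made up 85.5%, 92.2% and 83.8% of ATPase transcripts. The mean share was 87.1% ± 4.44. On the log2 scale the spread of this ratio was like that of Dpf2 over Phf10 (SD 0.63) and of Dpf3 over Phf10 (0.65).

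Of the 7 ratios between paralogs by TPM with the deposited lengths, 6 had the same sign in 3 of 3 libraries. Actl6b over Actl6a was the exception. Among these 6, Dpf1 over Phf10 changed sign in D with no length correction or with the longest transcript as length. Each of those 6 gave p = 0.25 in the exact two-sided sign-flip permutation test, the smallest value that 3 libraries allow, and 0.292 after Benjamini-Hochberg adjustment over the 7 ratios. None could therefore pass 0.05.

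**Figure D2:**
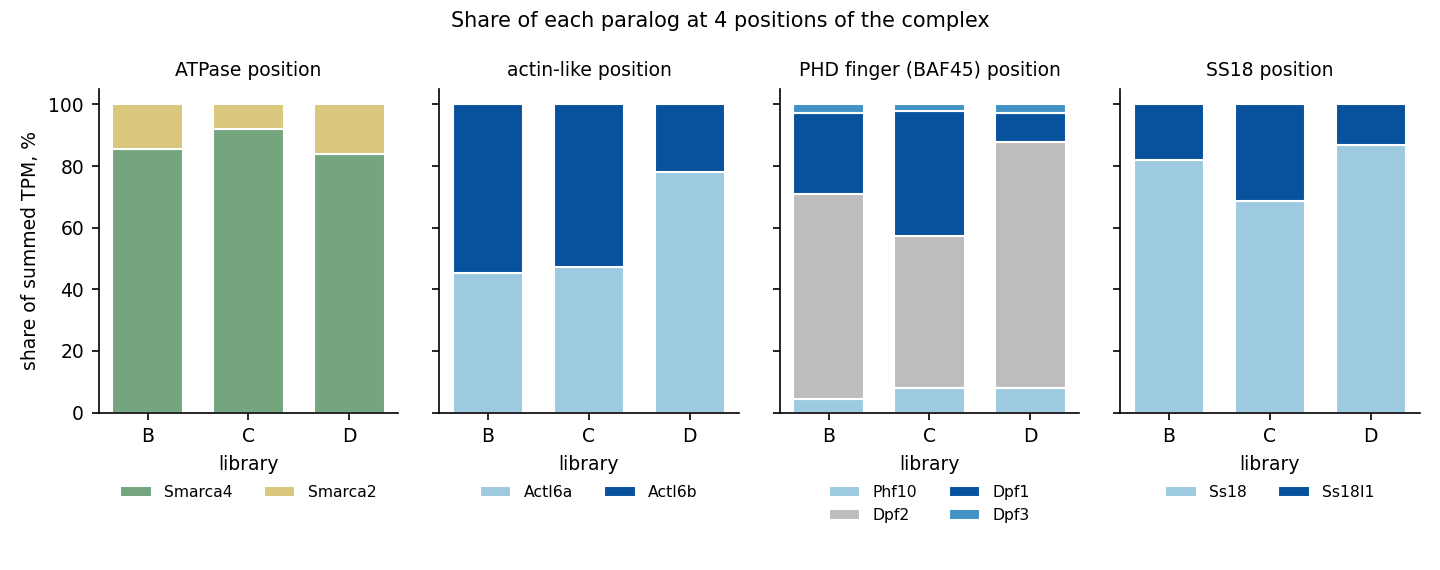
Share of each paralog in the summed TPM (%, stacked to 100) at the ATPase, actin-like, PHD finger and SS18 positions in libraries B, C and D. Actl6b makes up 54.8% in B, 52.8% in C and 22.0% in D, while Smarca4 lies between 83.8% and 92.2%.

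Between the pools, no member passed the adjusted threshold of the main test in any library. In library D, the pool of 3 embryos, Actl6b, Dpf1 and Ss18 had the ratios farthest from 0. Actl6b had 118, 105 and 37.7 CPM in libraries B, C and D, and Dpf1 at 43.7, 43.1 and 15.1 CPM. Ss18 was at 57.7, 27.9 and 192 CPM. Library D was thus the lowest for 2 neuronal subunits, whose B and C values nearly coincided, and the highest for a progenitor subunit whose B and C values differed. By CPM, D lay above both other libraries for 6 of 10 members (Actl6a, Phf10, Dpf2, Ss18, Ss18l1 and Smarca2), against 50.2% of 13445 genes with a mean of 1 CPM or more. It lay below both for 3 members (Actl6b, Dpf1 and Smarca4), against 32% of those genes. Both counts are near the share over all genes. The order of libraries by CPM differed from that by TPM for Smarca4, lowest in B by TPM and in D by CPM, for Dpf3, highest in D by TPM and in B by CPM, and for Ss18l1, lowest in C by TPM and in B by CPM. The direction did not follow the classes throughout, since the neuronal Ss18l1 was at 12.2, 12.3 and 27.9 CPM, highest in D.

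In edgeR's quasi-likelihood test of D against B and C, with Benjamini-Hochberg adjustment over 15727 genes, 0 of 10 members passed 0.05, as did 0% of all genes in either direction. At an unadjusted p under 0.05, 3 members stood out, Ss18 among the 11.2% of genes that were higher and Actl6b and Dpf1 among the 8.22% that were lower. Actl6b was lower in D by a log2 ratio of -1.80 ± 0.48 (approximate SE), or 3.49-fold (edgeR adjusted p = 0.198). Dpf1 had a log2 ratio of -1.76 ± 0.51, or 3.39-fold lower (edgeR adjusted p = 0.200). Ss18 had a ratio of 1.93 ± 0.53, or 3.81-fold higher (edgeR adjusted p = 0.200). These 3 were the members farthest from 0 and are named for that reason. Against B alone and C alone, the log2 CPM ratios were -1.64 and -1.46 for Actl6b, -1.50 and -1.48 for Dpf1, and 1.72 and 2.76 for Ss18. A sign shared by both is not particular to them: D lay above both other libraries for 6 of 10 members and below both for 3. The fit has 1 residual degree of freedom and takes the lone library to vary like the others. DESeq2 called 1 member, Actl6b (adjusted p = 0.0483), among 5.89% of genes. Without a filter on low counts, edgeR called Actl6b (adjusted p = 0.0456) and Ss18 (adjusted p = 0.00583), among 6.51% of genes.

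The other members had smaller ratios in D. Ss18l1 was at 0.95 ± 0.48 (edgeR adjusted p = 0.315), Phf10 at 0.49 ± 0.51, Dpf2 at 0.42 ± 0.53, Actl6a at 0.24 ± 0.41, Smarca2 at 0.10 ± 0.47, Dpf3 at 0.09 ± 0.71 and Smarca4 at -0.63 ± 0.48. In all, 7 members had positive and 3 negative ratios, with a median of 0.17 against -0.02 over all genes tested, of which 49.5% were positive. Scaling by CPM alone moves the median of all genes to 0.20 and leaves the split of the members at 7 and 3. With the trend of the ratio on gene length and GC content removed, 3 members were positive and 7 negative, with a median of -0.13. Phf10 (-0.08), Dpf2 (-0.19), Smarca2 (-0.60) and Dpf3 (-0.07) then changed sign, and Actl6b (-0.77), Dpf1 (-1.13) and Ss18 (1.29) kept theirs at smaller sizes.

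**Figure D3:**
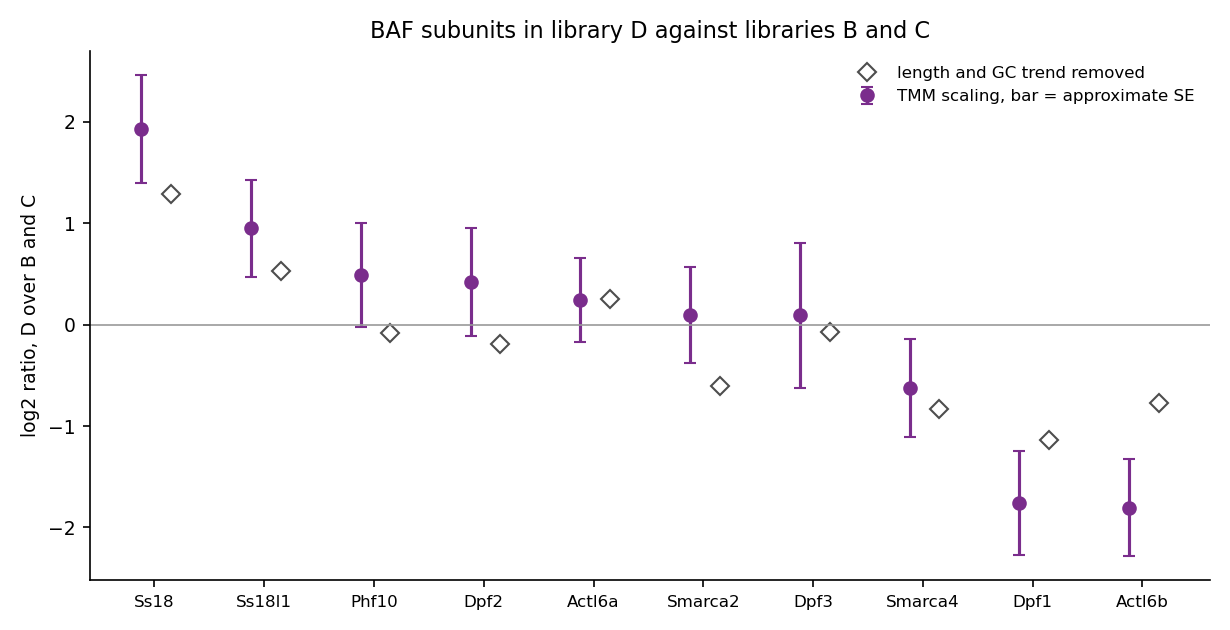
Log2 ratio of library D over B and C for each member, from the edgeR fit with TMM scaling (filled circles, bars are approximate SE) and with the trend on gene length and GC content removed (open diamonds). Ss18 at 1.93 and Actl6b at -1.80 mark the ends of the range, and both lie nearer 0 with the trend removed.

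Markers of cell types and of division were read from the same fit. As with the members, alternative fits called some markers in D that the main fit did not. Some markers had ratios in D farther from 0 than any member, in both directions, such as Erbb3 (3.11) and Hbb-y (-3.12). In D, 7 of 8 neuron markers had negative ratios (median -0.49, or -0.91 with the length and GC trend removed). Their summed levels were 28700, 19630 and 17457 TPM in B, C and D, most of it from Tubb3 and Stmn2. The median level of the 8 was instead highest in D, at 273.5, 175.5 and 476.3 TPM in the same order. For glia and Schwann cell precursors 6 of 8 were positive (median 0.81, or 1.33 with the trend removed; summed 2687, 1271 and 2679 TPM), and for dividing cells 7 of 8 (median 0.50, or 0.45; summed 325, 186 and 642 TPM). Sympathetic markers had negative ratios for 5 of 5 (summed 162, 54.7 and 36.3 TPM), and neuronal progenitor markers for 3 of 4 tested (summed 119, 308 and 181 TPM). Erythroid markers, detected for 3 of 5 genes and led by Hbb-y at 1185 ± 903 TPM and Hba-x at 181 ± 176, had negative ratios for 5 of 5 (summed 2563, 1297 and 360 TPM). The part of all these markers in the lower Actl6b and Dpf1 and the higher Ss18 of library D was not tested. Skeletal muscle markers, which bear on Dpf3, were detected for 0 of 4 genes. Their levels were highest for Actc1 (5.11 ± 4.17 TPM) and Myf5 (1.47 ± 2.40). Counts in B, C and D were 3, 0 and 68 for Myf5 and 114, 3 and 90 for Actc1. Myog and Myl1, like Myf5, had none in C, the library with the fewest counts in all. In the fit of C against B and D, which scales for library totals, 4 of 4 of these markers had negative ratios. Dpf3 had 104, 31 and 111 counts, or 5.75, 2.66 and 5.29 CPM, also lowest in C. The part of depth in these values was not tested.

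Library C was lower than both others for 5 of 10 members (Actl6a, Dpf2, Dpf3, Ss18 and Smarca2), against 39.4% of genes, and higher than both for 1, Smarca4, against 28%. Smarca4 had 214, 336 and 211 CPM in libraries B, C and D. Dpf2 was at 205, 97.3 and 237 CPM, so that C had the lowest value of the widely expressed BAF45 member. In edgeR's test of C against B and D, 0 of 10 members passed an adjusted p of 0.05, against 0.757% of genes higher and 0.0254% lower, and 0 had an unadjusted p under 0.05 (4.22% higher and 2.69% lower over all genes). DESeq2 also called 0 members in C, against 1.37% of genes. The largest ratio was that of Ss18, -1.95 ± 1.01 (edgeR adjusted p = 0.733). In C, 0 of 8 markers of dividing cells had a positive ratio (median -1.10, or -0.90 with the length and GC trend removed). Of the neuronal progenitor markers, 3 of 4 were positive (median 2.09, or 1.00 with the trend removed), from Hes6 at 3.78 to Neurod1 at -1.28. The part of these markers in the Ss18 and Dpf2 values was not tested. Library B lay above both others for 3 members (Actl6b, Dpf1 and Dpf3), against 21.8% of genes, and below both for 2 (Phf10 and Ss18l1), against 28.6%. No member passed in edgeR's test of B (0% of genes higher and lower), and none had an unadjusted p under 0.05 (0.362% of genes higher, 0.744% lower). DESeq2 called 0 members in B as well, against 0.00425% of genes.

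The known regulators of the switch were present unevenly. Rest, the repressor of neuronal genes, had levels of 3.38, 3.35 and 17.5 TPM in libraries B, C and D, from 220, 145 and 972 counts. Its log2 ratio in D was 1.67 ± 0.46 (edgeR adjusted p = 0.200), or 0.92 with the length and GC trend removed, and did not pass. By CPM, 50.2% of genes were highest in D, and a link between Rest and Actl6b was not tested. Its corepressor partner Rcor1 was at 4.10, 5.43 and 15.7 TPM, also highest in D, and the partner paralog Rcor2 at 6.01, 8.03 and 3.93 TPM, lowest in D. Ptbp1, a splicing repressor of non-neuronal cells that miR-124 targets, was at 23.2, 9.57 and 81.6 TPM. Ptbp2, the paralog that takes its place in young neurons, was at 41.9, 36.2 and 223 TPM, with a log2 ratio in D of 1.81 ± 0.41 (edgeR adjusted p = 0.182). Both splicing factors were thus highest in D. Of the 6 regulators tested, 4 were positive in D and 2 negative (median 1.32, or 0.64 with the length and GC trend removed), and 0 passed the adjusted threshold. Without a filter, edgeR called Rest (adjusted p = 0.0448), Ptbp1 (0.0305) and Ptbp2 (0.00765), among the same 6.51% of genes. DESeq2 called Ptbp2 (adjusted p = 0.0468), among 5.89%.

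Host transcripts of the miRNAs gave a partial view. Mir124a-1hg was at 2.89, 3.23 and 4.00 TPM, and Mir9-3hg had 3, 1 and 4 counts. The hairpin genes Mir9-2, Mir9-3, Mir124a-1, Mir124a-2 and Mir124a-3 had no counts. Mir9-1 was not found by symbol among the counted genes, so no level is given for it. Hairpins are short, and 4 of them share bases with a longer gene on the same strand, which covers the whole hairpin for Mir9-2 and Mir124a-1. Named after their values were seen, the longer genes besides Mir124a-1hg are C130071C03Rik over Mir9-2, with 96, 20 and 253 counts, Mir124-2hg over Mir124a-2, with 453, 461 and 707, and Gm27032 over Mir124a-3, with 13, 59 and 9. A count of 0 for a hairpin gene is therefore no measure of its miRNA.

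Of 21 other subunits of BAF and its relatives PBAF and ncBAF, 19 were detected. Actb, the actin that pairs with the actin-like subunit and serves the whole cytoskeleton, was at 8788, 5505 and 21465 TPM. The core subunit Smarcb1 followed at 135 ± 31.4 TPM (SD, n = 3), then Brd9, which marks ncBAF, at 112 ± 40.6. Smarce1, the HMG-box subunit, was at 43.4 ± 24.9 TPM, Smarcd1 (BAF60a) at 42.9 ± 12.4 and Pbrm1, which marks PBAF, at 35.6 ± 21.6. By mean TPM, Smarcb1 lay just above Actl6a, the highest of the 10 members, and the next 4 lay within the members' range. In D, Smarcb1 was at 149 TPM and Actl6a at 187. The level of Smarcb1 depends on length: its deposited length is 7930 bases and its longest transcript 1660. By CPM, Smarcb1 was at 618, 402 and 435 in B, C and D, against 139, 133 and 190 for Actl6a. Of the BAF60 paralogs, Smarcd1 had the highest mean TPM, and Smarcd2 was at 7.96 ± 2.13 TPM. Smarcd3, the BAF60c subunit known from heart and muscle, was below 1 TPM at 0.46, 0.84 and 0.63, and it shares 2466 exon bases (54.3%) with Chpf2 on the opposite strand. Of the ARID1 subunits that define canonical BAF, Arid1a was at 24.7 ± 16.3 TPM and Arid1b at 12.2 ± 11.3. The zinc finger subunit Bcl11a was at 1.77 ± 0.31 TPM. Its paralog Bcl11b was at 1.63, 0.93 and 5.71 TPM, under 1 TPM in C only.

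In D, 13 of these 21 subunits had positive and 8 negative ratios (median 0.19, or 0.24 with the length and GC trend removed), and 0 passed the adjusted threshold. The 4 with an unadjusted edgeR p under 0.05, against 19.4% of all genes, were Actb (log2 ratio 0.89), Arid1b (1.41), Bcl11b (1.46) and Bcl7b (-1.44). Complexes other than BAF also hold ACTL6A, among them INO80 and TIP60, and 8 of 9 genes listed for them were detected. The highest were Ruvbl2 at 104 ± 23.2 TPM, Actr8 at 73.7 ± 4.84 and Kat5 at 71.0 ± 5.39. Transcript levels do not tell which of these complexes an ACTL6A protein joins. Ruvbl2 and Kat5 share exon bases with neighbours on the opposite strand.

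**Figure D4:**
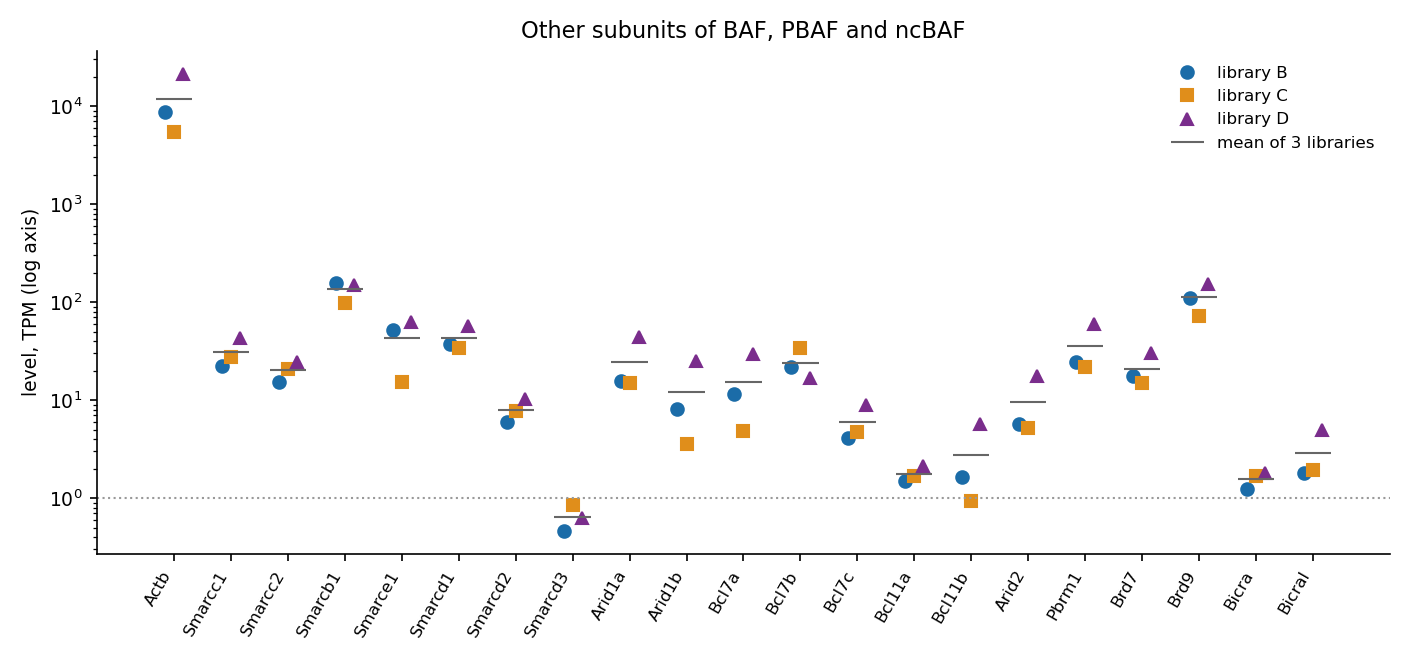
Level of 21 other BAF, PBAF and ncBAF subunits in TPM (log axis) in libraries B, C and D, with the mean as a bar and the detection limit of 1 TPM as a dotted line. Smarcd3 lies below the line in each library and Bcl11b in C only, and Actb lies highest, from 5505 to 21465 TPM.

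Genes with the most similar profile across the 3 libraries were sought by the distance between centred log2(CPM + 0.5) values, among 10466 genes with a mean of 5 CPM or more. For Actl6b these were 2900093K20Rik, Rps10 and Tmem147, at distances of 0.0097, 0.027 and 0.029. For Actl6a they were Ptgr1, Armc8 and Raver2, and for Smarca4 they were Fam174b, Bag2 and Zrsr2. Dpf3, at a mean of 4.57 CPM, was closest to Gmip, Nms and Tma16. With 3 points per gene such likeness is common: 17 genes lay within a distance of 0.1 of Actl6b, 142 of Actl6a, 51 of Smarca4 and 35 of Dpf3.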

How the data were processed

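RNA of 3 pools of sorted cells, 1 group, was sequenced. For each pool the authors deposited raw counts, CPM and RPKM of 41388 genes. The deposited CPM is the count scaled to the file total, and the deposited RPKM is that CPM per kilobase of gene length. Per the submitters' processing notes, Subread, featureCounts 1.4.5 and the build GRCm38.p2 were used, without stated roles. For the annotation release, strand setting and read filters, no statement is given in the sources used here. Per the labels' protocols, the low-input cDNA kit was not strand-specific.

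All results start from the counts. TPM was computed over all genes of a file. Ratios are log2((TPM + 0.1) ratio) within a library, tested by an exact sign-flip permutation test. Each library was set against the others by the quasi-likelihood test of edgeR 4.0.16, after filterByExpr and TMM scaling. P-values were adjusted over all genes (Benjamini-Hochberg, threshold 0.05). The fit was also run on simulated counts, which were less variable than these libraries and held no length trend. That run does not show how the fit performs on these data. Standard errors were derived from the ratio and its F statistic. DESeq2 1.42.0, its size factors, no filter, removal of a length and GC trend (mgcv 1.9.3), other detection limits, pseudocounts and lengths, and each library left out were alternatives. DESeq2's p-values that are NA stayed NA.

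The named genes are all members and regulators of the switch, the 6 most abundant of the other subunits with those under 1 TPM and 7 fixed names, the 3 most abundant genes of other ACTL6A complexes, 2 leading markers per cell type with those lacking counts, and the 3 nearest profiles of 4 members. A leading marker that this rule names is not reported here. Members and lists were chosen with earlier results of these data known. The libraries are pools, and p-values measure the spread between these pools.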

Additional observations from a re-analysis of the deposited data

How the results depend on the processing

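Across 247 alternative settings of all results, 234 left the direction and the side of the threshold as they were or moved the value within the spread. A nearby count of detected members was also taken as unchanged: at a limit of 5 TPM, 8 rather than 10 members were detected. With the longest coding transcript as length, Dpf3 over Phf10 was -2.44 and the Phf10 share 10.5%. Dpf1 over Phf10 in D was then -0.73, against 0.22 with the deposited lengths. Against 0 members called in D, DESeq2 called 1 and edgeR without a filter 2. Once the trend on length and GC content was removed, the ratios in D of Phf10 (-0.079), Dpf2 (-0.19), Dpf3 (-0.070) and Smarca2 (-0.60) and the ratios in C of Phf10 (0.26) and Smarca2 (0.10) changed sign; none of these had passed the threshold. The cause was not tested. Leaving out 1 library at a time, Actl6b over Actl6a ranged from -0.83 to 0.22 and the Actl6b share from 37.4% to 53.8%, and 10 members stayed detected. In the tests of 1 library against the others, leaving 1 out keeps 1 against 1 with no residual degree of freedom, so no test was run. No paired analysis was possible because the series has a single group. Depth limits Dpf3 most, with 31 counts in C.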
